A study of Mus musculus with 6 samples.

Results

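The genes described here are 6 members of the mouse Siglec family, lectins on the surface of immune cells that bind sialic acid. They were chosen by symbol from a table of 37447 genes: Siglech, Cd33, Siglec5, Siglece, Siglec1 and Siglecg. Each symbol has 1 row in the table. The RNA came from optic nerves of C57BL/6 mice aged 3 months, from which microglia, the macrophages that live in nervous tissue, had been sorted by flow cytometry. The FMC group (4 libraries) had the genotype Nf1 flox/mut, that is 1 floxed and 1 mutant copy of the tumour suppressor gene mutated in neurofibromatosis type 1, and also GFAP-Cre, a Cre recombinase driven by a promoter of astroglial cells. The FM group (2 libraries) carried the same floxed and mutant Nf1 alleles without Cre, so both groups have a mutant Nf1 allele in every cell, microglia included. FMC 1 and FMC 4 are labelled female and FMC 2 and FMC 3 male, and FM 1 is labelled male and FM 2 female. The labels call the libraries biological replicates and do not say how many mice each holds, so p-values measure the spread between these libraries.

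Siglecs bind sialic acid, the sugar that caps the glycans of a cell's own surface. Most carry inhibitory tyrosine motifs (ITIMs) in their tails, which recruit the phosphatases SHP-1 and SHP-2 and dampen activation, while a few instead pair with the activating adaptor DAP12. Siglech marks microglia in the mouse brain and plasmacytoid dendritic cells elsewhere. Siglec1, also called sialoadhesin or CD169, is a macrophage adhesion receptor with a long extracellular part, and it is induced by interferon. The symbol Siglec5 in this table stands for the gene now called Siglecf, which is best known on eosinophils and alveolar macrophages.

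Of the 6 members, 4 lie in a cluster on chromosome 7 that spans 308.8 kb in the mm9 build, and each of the 6 has a locus that overlaps 0 other genes of the table. Siglec5 (ENSMUSG00000039013) runs from 50606711 to 50614901, Siglecg (ENSMUSG00000030468) from 50663574 to 50673728, Cd33 (ENSMUSG00000004609) from 50782826 to 50788541 and Siglece (ENSMUSG00000030474) from 50906440 to 50915531. Siglech (ENSMUSG00000051504) lies 12.1 Mb further along chromosome 7, from 63023548 to 63034295. Siglec1 (ENSMUSG00000027322) is on chromosome 2, from 130894956 to 130912501. Of 13 other genes inside the cluster, 6 reached the level needed for testing, and in 0 of these did the groups separate in either direction. Over all 18208 genes tested, every FMC library lay above both FM libraries in 4.34% and below both in 8.22%.

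The promoters of 4 members are shown because Siglech and Cd33 had the highest levels and Siglec5 and Siglece the largest differences between the groups. Each is the 250 bases before the RefSeq transcript start in GRCm38.p6, 5′ to 3′ in the direction of the transcript. They lie at chr7:55767934-55768183 on the plus strand (Siglech), chr7:43533172-43533421 on the minus strand (Cd33), chr7:43351091-43351340 on the plus strand (Siglec5, listed by RefSeq as Siglecf) and chr7:43660162-43660411 on the minus strand (Siglece). In Siglec5 and Cd33 capitals mark the longest run of letters that any 2 member promoters share. In Siglece they mark GAGGAA and in Siglech GGAAGT, on either strand. Both are forms of GGAA, the core letters bound by ETS factors such as the myeloid regulator PU.1.
Siglech: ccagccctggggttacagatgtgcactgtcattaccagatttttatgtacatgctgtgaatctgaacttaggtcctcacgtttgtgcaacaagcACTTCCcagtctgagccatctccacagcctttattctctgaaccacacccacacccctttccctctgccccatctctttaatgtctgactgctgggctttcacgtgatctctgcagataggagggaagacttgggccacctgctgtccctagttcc
Cd33: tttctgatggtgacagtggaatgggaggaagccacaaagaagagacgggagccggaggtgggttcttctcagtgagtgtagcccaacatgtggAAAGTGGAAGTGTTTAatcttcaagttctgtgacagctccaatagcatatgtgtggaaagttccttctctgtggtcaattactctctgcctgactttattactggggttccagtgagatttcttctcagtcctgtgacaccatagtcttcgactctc
Siglec5: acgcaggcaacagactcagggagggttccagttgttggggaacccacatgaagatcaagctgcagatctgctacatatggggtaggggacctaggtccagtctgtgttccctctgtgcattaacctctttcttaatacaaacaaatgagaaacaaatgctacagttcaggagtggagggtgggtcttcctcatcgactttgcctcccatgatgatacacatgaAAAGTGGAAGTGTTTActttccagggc
Siglece: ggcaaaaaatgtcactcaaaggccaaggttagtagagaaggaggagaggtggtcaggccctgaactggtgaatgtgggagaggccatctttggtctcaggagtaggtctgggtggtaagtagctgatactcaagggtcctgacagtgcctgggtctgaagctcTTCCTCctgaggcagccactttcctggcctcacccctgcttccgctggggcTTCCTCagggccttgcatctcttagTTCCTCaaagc

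The run shared by Siglec5 and Cd33 is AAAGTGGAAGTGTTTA, 16 bases that begin 27 and 157 bases before their starts. Of the 32851 promoters in the RefSeq table, these 2 hold it. Across the 10 pairs of members with a promoter the next longest shared run was 10 bases. The run includes GGAAGT, which 19.7% of promoters hold and which Siglech also has. GAGGAA stood 3 times in Siglece and is not particular to it. It stood 1 time each in Siglec5 and Cd33, where it is not in capitals, and 2 times in 1 of 2 Siglecg promoters. At least 1 match is in 23.3% of promoters, and GGAA alone is in 93.4%. A match describes these letters and not a bound site.

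Levels are FPKM, fragments counted per unit of transcript length and relative to the library's mapped total, so levels of different genes can be set side by side. Siglech was by far the most abundant member. It stood at 358, 177, 294 and 326 FPKM in FMC 1 to FMC 4, against 286 and 455 FPKM in FM 1 and FM 2. In each library it ranked between 158 and 293 among all genes, above the 99.2th percentile. The highest value is an FM library and the lowest an FMC library, and the groups overlap. Its means were 289 ± 79 FPKM in FMC (SD, n = 4) and 371 ± 119 FPKM in FM (SD, n = 2). The difference, FMC minus FM on the log2(FPKM + 1) scale, was -0.37 ± 0.50 (SE; 95% interval -1.50 to 0.76; limma adjusted p = 0.999). Markers of plasmacytoid dendritic cells, 8 genes summed, reached 82.1 to 168 FPKM in FMC and 193 and 162 FPKM in FM 1 and FM 2. Differences were positive for 4 of the 8 and negative for 4, among the latter Tcf4, Bst2 and Ccr9. Ly6d, with a positive difference, was 0 to 33.1 FPKM in FMC and 0.0988 and 1.24 FPKM in FM 1 and FM 2. Of the 8, only 2, Tcf4 and Bst2, were at 1 FPKM or more in every library. Tcf4 was 32.1 to 99.6 FPKM in FMC and 63.5 and 73.5 FPKM in FM 1 and FM 2. Bst2, also listed here as interferon-stimulated, was 17.0 to 61.4 FPKM in FMC and 120 and 73.3 FPKM in FM 1 and FM 2. Ccr9, a homing receptor gene of these cells, was 0.0600 to 13.3 FPKM in FMC and 7.02 and 8.40 FPKM in FM 1 and FM 2. The part of these cells in the Siglech level was not tested.

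Cd33, an inhibitory receptor of myeloid cells in human whose mouse form has a different tail, was the second most abundant. It was at 70.1, 45.7, 96.5 and 105 FPKM in FMC 1 to FMC 4, against 53.8 and 94.2 FPKM in FM 1 and FM 2. Both FM values lie inside the FMC range. The means were 79.5 ± 27.0 FPKM in FMC (SD, n = 4) and 74.0 ± 28.5 FPKM in FM (SD, n = 2). The log2 difference was 0.08 ± 0.51 (SE; 95% interval -1.07 to 1.24; limma adjusted p = 0.999), and its sign changed with single libraries left out.

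Siglec5 and Siglece had the largest differences of the 5 members tested, in opposite directions, and neither passed the test. Siglec5 encodes an ITIM-bearing receptor that triggers the death of eosinophils when bound. It stood at 83.1, 19.0, 36.1 and 41.6 FPKM in FMC 1 to FMC 4, against 11.1 and 21.4 FPKM in FM 1 and FM 2. Of the 4 FMC libraries 3 lie above both FM libraries, and FMC 2 lies between them. The means were 44.9 ± 27.2 FPKM in FMC (SD, n = 4) and 16.3 ± 7.3 FPKM in FM (SD, n = 2). The log2 difference was 1.29 ± 0.64 (SE; 95% interval -0.15 to 2.73), a fold of 2.45 on the log2(FPKM + 1) scale (limma adjusted p = 0.993; exact two-sided permutation p = 0.267). Eosinophil markers went both ways in FMC 1, the library with the highest Siglec5. Prg2, a granule gene, was 60.6 FPKM there against 0 to 1.38 FPKM in the other 5 libraries, while Ear1, Ear2, Ccr3, Il5ra and Alox15 were lowest there. Ear2, an eosinophil ribonuclease gene, was at 0, 2.13, 1.69 and 3.74 FPKM in FMC 1 to FMC 4, against 26.3 and 73.1 FPKM in FM 1 and FM 2 (limma adjusted p = 0.349), and Epx, which encodes eosinophil peroxidase, was at or below 1.27 FPKM in each library. Summed over 7 eosinophil markers, the level was 12.9 to 66.5 FPKM in FMC and 61.4 to 97.4 FPKM in FM, with the sum higher in FM 2 than in any FMC library. Without FMC 1 the Siglec5 difference was 0.94.

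Siglece encodes an ITIM-bearing inhibitory receptor of neutrophils, macrophages and microglia. It was at 9.99, 13.4, 39.8 and 16.8 FPKM in FMC 1 to FMC 4, against 24.9 and 76.9 FPKM in FM 1 and FM 2. FM 2 is the highest of the 6, and FMC 3 lies above FM 1, so the groups overlap. The means were 20.0 ± 13.5 FPKM in FMC (SD, n = 4) and 50.9 ± 36.8 FPKM in FM (SD, n = 2). The log2 difference was -1.29 ± 0.69 (SE; 95% interval -2.85 to 0.28; limma adjusted p = 0.993; exact two-sided permutation p = 0.2). Without FM 2 it was -0.49. Neutrophil markers, 9 genes summed, reached 83.0 to 503 FPKM in FMC and 380 and 49.8 FPKM in FM 1 and FM 2, lowest in the library with the highest Siglece, and their part in the Siglece level was not tested. Of the 8 tested, 5 had positive and 3 negative differences. S100a8, an abundant calcium-binding protein gene of neutrophils, was 17.1 to 190 FPKM in FMC and 213 and 40.2 FPKM in FM 1 and FM 2.

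**Figure D1:**
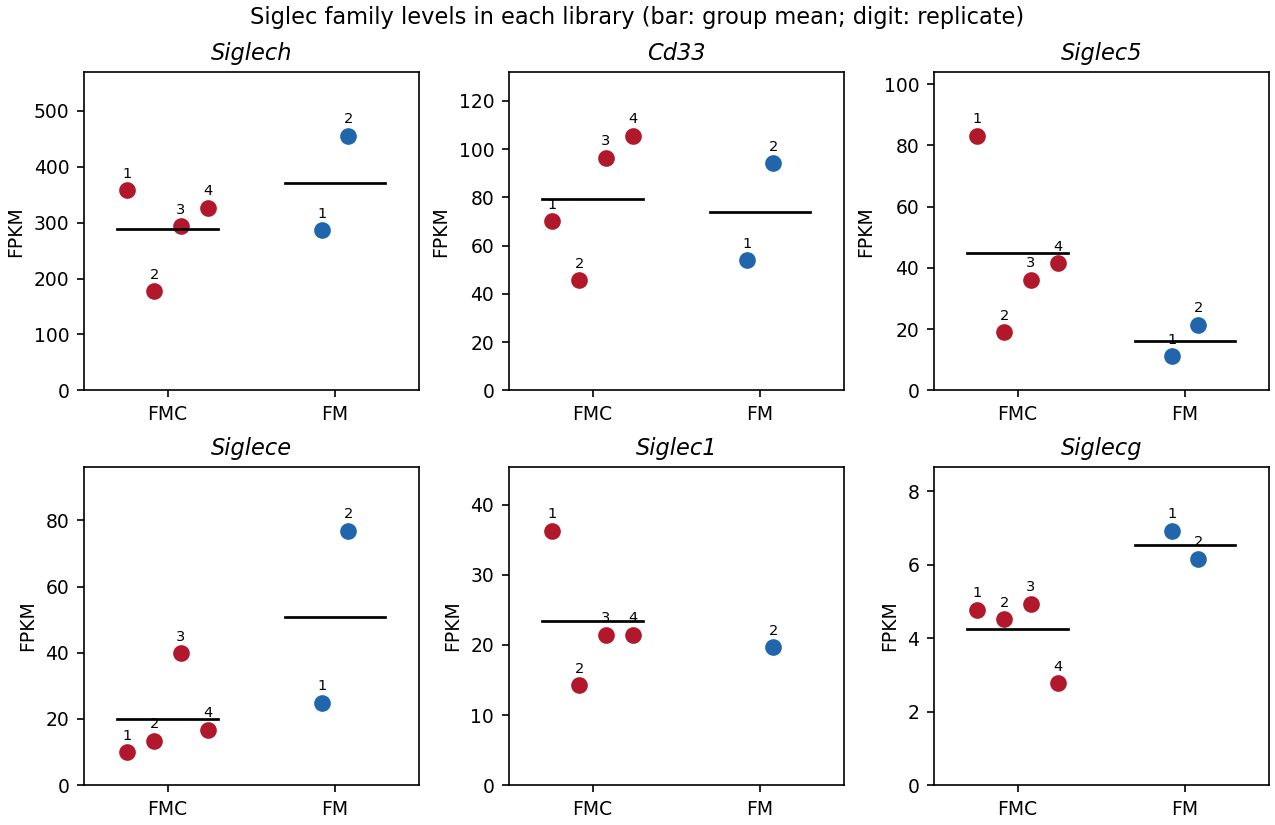
Level of each member in FPKM (vertical axis, starting at 0, separate scale per gene) in the FMC libraries (left, red) and FM libraries (right, blue). Each point is 1 library with its replicate number, and bars are group means; Siglec1 has no value in FM 1 and no FM mean. Siglecg is the member whose groups do not overlap, and Siglech is above 177 FPKM in every library.

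Siglec1 has no value in FM 1 and was left out of the test across all genes. It stood at 36.3, 14.2, 21.5 and 21.5 FPKM in FMC 1 to FMC 4, against 19.7 FPKM in FM 2. The single FM value lies inside the FMC range. A fit that kept genes with missing values, added after the data were seen, gave a log2 difference of 0.16 ± 0.72 (SE; 95% interval -1.51 to 1.83; limma adjusted p = 0.999). It rests on 1 FM library, assumed to vary like the FMC libraries, and 5 values cannot give an exact p under 0.2. Markers of border-associated macrophages, which carry Siglec1, summed to 281 to 471 FPKM in FMC and 561 and 798 FPKM in FM 1 and FM 2 over 9 genes with 6 values, and 7 of the 9 were at 1 FPKM or more in every library. Mrc1, the mannose receptor of these cells, was 60.5 to 87.9 FPKM in FMC and 113 to 126 FPKM in FM. Their part in the Siglec1 level was not tested.

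Siglecg, an inhibitory receptor of B-1 cells that restrains B cell receptor signalling, was the least abundant member. It was at 4.77, 4.51, 4.93 and 2.77 FPKM in FMC 1 to FMC 4, against 6.92 and 6.16 FPKM in FM 1 and FM 2. All 4 FMC libraries lie below both FM libraries, as in 8.22% of the 18208 genes tested, and 0 members had all FMC libraries above, as in 4.34%. The log2 difference was -0.55 ± 0.68 (SE; 95% interval -2.10 to 1.00; limma adjusted p = 0.999). An exact two-sided permutation test gave p = 0.0667, the smallest that 15 splits allow. B cell markers summed over 9 genes were 36.1 to 156 FPKM in FMC and 49.7 and 123 FPKM in FM 1 and FM 2, and 6 of the 8 tested had positive differences. Cd79a, a B cell receptor subunit gene, was 4.88 to 17.9 FPKM in FMC and 0.742 and 1.60 FPKM in FM 1 and FM 2, while its partner Cd79b was 2.33 to 45.8 FPKM in FMC and 25.4 and 98.4 FPKM in FM 1 and FM 2. Their part in the Siglecg level was not tested.

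Over the family, limma called 0 of 5 tested members at an adjusted p under 0.05, where it called 0.0275% of the 18208 genes (5 genes, all lower in FMC). At an unadjusted p under 0.05 there were 0 members and 973 genes. Differences were positive for 2 members and negative for 3, with a median of -0.37 beside -0.12 over all genes tested. The 95% intervals of the 5 members all include 0 and are 2.26 to 3.13 log2 units wide.

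**Figure D2:**
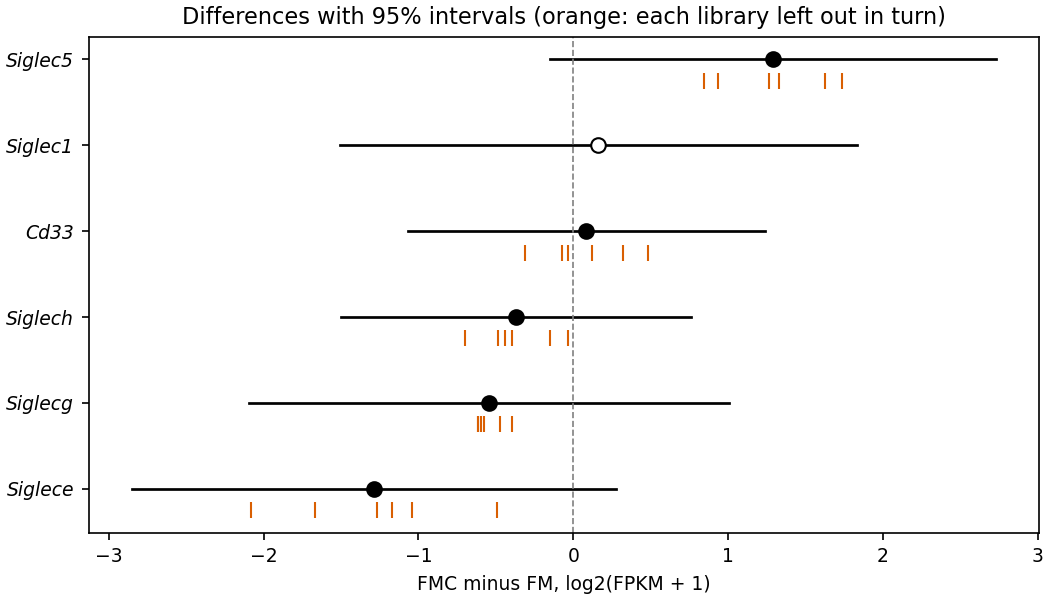
Difference between FMC and FM for each member on the log2(FPKM + 1) scale (horizontal axis), with the 95% interval from limma as a line; the open point for Siglec1 comes from the added fit with 1 FM library. Orange ticks are the differences with each library left out in turn, from 0.85 to 1.73 for Siglec5 and from -2.08 to -0.49 for Siglece; each of the 6 intervals includes 0.

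The order of the levels was steady at both ends and mixed in the middle. Siglech was above Cd33 in 6 of 6 libraries, and Cd33 above Siglec5 in 5 of 6. Siglec5 was above Siglece in 3 of 6, and Siglece above Siglec1 in 2 of the 5 libraries that have both, so these neighbours do not differ beyond their spread. Siglec1 was above Siglecg in 5 of 5. Of the summed FPKM of the 5 members with values everywhere, Siglech made up 62.3% to 68.2% in FMC and 69.6% to 74.7% in FM. Cd33 made up 13.3% to 21.4% in FMC and 14.0% to 14.4% in FM.

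Siglec5 was the higher of the pair in 3 of 4 FMC libraries, and Siglece in both FM libraries. The ratio of Siglec5 to Siglece FPKM within a library was 8.32, 1.42, 0.907 and 2.48 in FMC 1 to FMC 4, against 0.448 and 0.279 in FM 1 and FM 2. Every FMC ratio is above both FM ratios. A ratio within a library does not depend on the scaling of that library. This pair was picked after the values were seen, for its opposite differences, so the ratio is a description with no test. In the libraries whose titles carry dates 1 day apart the size was alike. Siglec5 in FMC 2 was 1.70 times its level in FM 1, and in FMC 3 it was 1.68 times its level in FM 2. Siglece in FMC 2 was 0.538 times its level in FM 1, and in FMC 3 it was 0.518 times its level in FM 2. What these dates record is not given, and FMC 3 and FM 2 also differ in labelled sex.

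**Figure D3:**
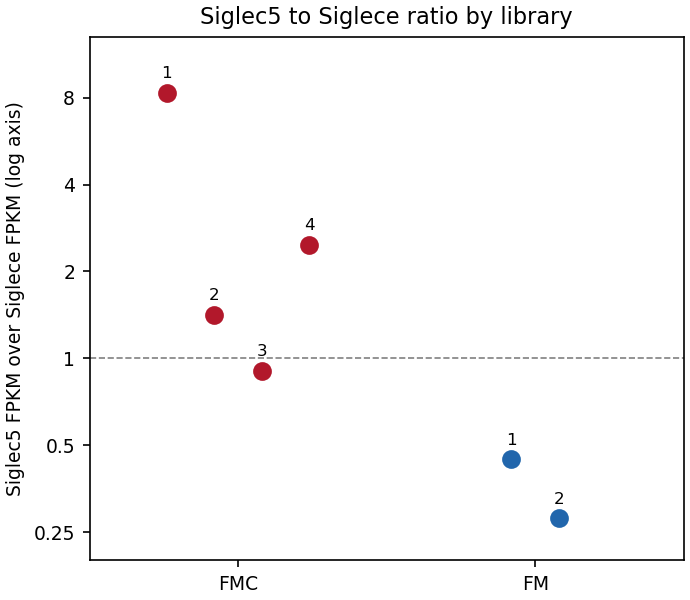
Ratio of Siglec5 to Siglece FPKM within each library (vertical log axis; dashed line at 1), for FMC (left) and FM (right), with the replicate number at each point. The FMC ratios run from 0.907 to 8.32 and both FM ratios are below 0.5; the pair was chosen after its values were seen.

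The sorted cells carried microglial transcripts throughout: all 13 markers of resident microglia were at 1 FPKM or more in every library. Their sum was 3748 to 5606 FPKM in FMC and 3866 and 7516 FPKM in FM 1 and FM 2, highest in FM 2, the library that also has the highest Siglech and Siglece. In bulk RNA fewer cells of a type and less RNA per cell cannot be told apart. All 13 had negative differences (median -0.26), and in 2, Fcrls and Slc2a5, every FMC library lay below both FM libraries, as in 8.22% of all genes tested. A scale relative to these markers therefore raises the FMC minus FM difference of every gene. Set against the mean log2 level of those markers in the same library, Siglech varied less. It stood 0.79, 0.20, 0.68 and 0.47 above that mean in FMC 1 to FMC 4, against 0.58 and 0.46 in FM 1 and FM 2, a range of 0.59 where the range of its own level was 1.35. The relative difference of Siglech was 0.013. Its ratio to P2ry12, a purinergic receptor of resident microglia, was 0.959 to 1.26 in FMC and 1.13 to 1.20 in FM, and its ratio to Tmem119, another microglial surface gene, was 0.895 to 1.23 in FMC and 1.03 to 1.32 in FM, both with overlap. Its ratio to Csf1r, the growth factor receptor gene of macrophages, was 0.447, 0.302, 0.360 and 0.411 in FMC 1 to FMC 4, against 0.477 and 0.473 in FM 1 and FM 2, with every FMC library below both FM libraries. This was the 1 of 3 ratios whose groups were apart, and how many genes separate on such a ratio was not tested.

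Transcripts of other cell types were present as well. Monocyte markers summed to 39.7 to 53.1 FPKM in FMC and 40.6 and 31.7 FPKM in FM 1 and FM 2 over 6 genes, and Ccr2, the chemokine receptor gene of blood monocytes, was 12.3 to 46.8 FPKM in FMC and 22.0 and 22.3 FPKM in FM 1 and FM 2. T cell markers, 8 genes, summed to 227, 82.4, 62.6 and 25.2 FPKM in FMC 1 to FMC 4, against 26.5 and 29.7 FPKM in FM 1 and FM 2. Cd3e, a subunit gene of the T cell receptor complex, was 20.4, 0.908, 4.46 and 3.80 FPKM in FMC 1 to FMC 4, against 0.981 and 18.4 FPKM in FM 1 and FM 2, and it was the 1 of 8 T cell markers with a negative difference. Over the list the median difference was 1.39, and Lck, a T cell kinase gene, was 5.30 to 25.1 FPKM in FMC and 3.04 and 2.21 FPKM in FM 1 and FM 2. FMC 1, the library highest in Siglec5 and Siglec1, is also the highest in T cell, B cell and neutrophil markers, and their part in those levels was not tested. Of the 9 marker lists, 0 genes were listed at 0 in all libraries.

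On the same relative scale Siglec5 was -1.30, -2.96, -2.31 and -2.47 in FMC 1 to FMC 4, against -3.99 and -3.88 in FM 1 and FM 2. All 4 FMC values lie above both FM values, as do those of 9.57% of all genes on this scale. Cd33 was -1.55, -1.73, -0.92 and -1.15 in FMC 1 to FMC 4, against -1.81 and -1.80 in FM 1 and FM 2, also without overlap. The scale raised the median difference of all genes to 0.26, and the Siglec5 difference to 1.67 (limma adjusted p = 0.921). Siglece was -4.24 to -2.17 in FMC and -2.89 and -2.09 in FM 1 and FM 2, with overlap. Siglecg, whose groups were apart in FPKM, overlapped here, at -5.97 to -4.81 in FMC and -5.53 to -4.60 in FM. Siglec1 was -2.48, -3.35, -3.04 and -3.40 in FMC 1 to FMC 4, against -3.999 in FM 2, a difference of 0.94 that rests on that 1 FM library, the highest in microglia markers.

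**Figure D4:**
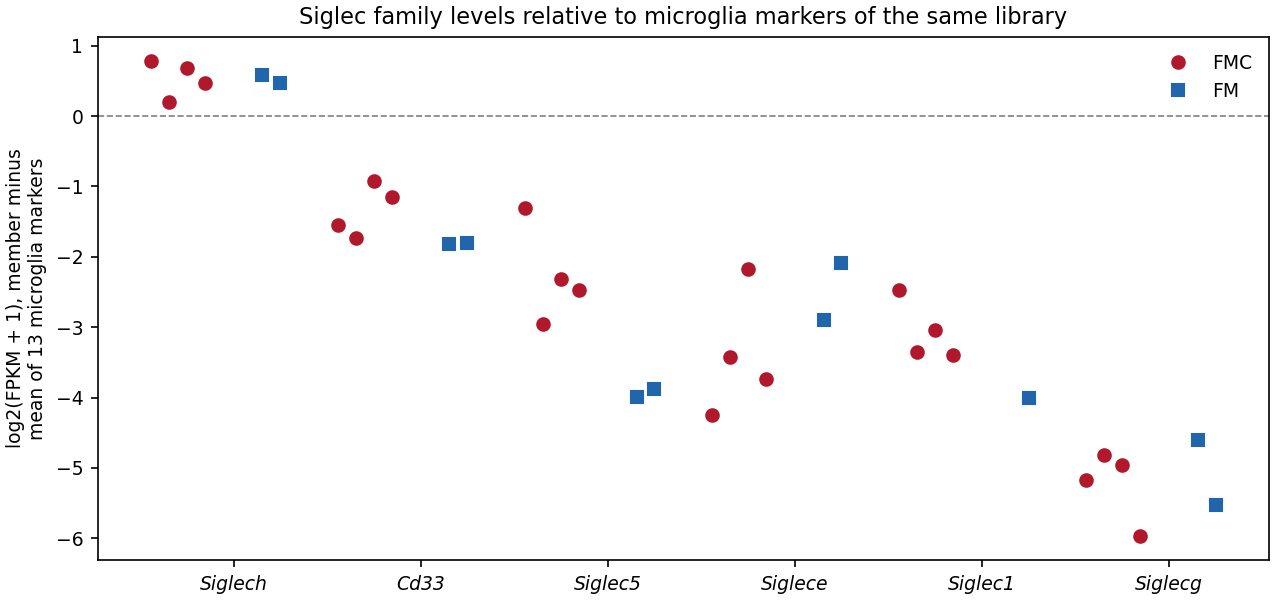
Level of each member minus the mean level of 13 microglia markers in the same library, on the log2(FPKM + 1) scale (vertical axis), for FMC (red circles, left of each pair) and FM (blue squares). Siglech stays between 0.20 and 0.79 above the marker mean, and the FMC points of Siglec5, Cd33 and Siglec1 are above the FM points, of which Siglec1 has 1.

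The genes whose pattern over the 6 libraries was nearest to a member's were sought among 7943 named genes with a mean of at least 5 FPKM, by the root mean square difference of centred log2(FPKM + 1). For Siglech they were Trpc4ap (0.068) and Parvg (0.086), and for Cd33 Sp110 (0.089) and Gramd1a (0.10). For Siglec5 they were Fam102a (0.20) and Scamp4 (0.22), for Siglece Pde1b (0.25) and Sirt4 (0.25), and for Siglecg Uba1 (0.18) and Rgs2 (0.18). With 6 libraries and this many candidates a close pattern is easily found, and no test was made.

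Other Siglec genes and the signalling partners showed no called change. Cd22, the Siglec of B cells, was 14.4 ± 4.2 FPKM in FMC (SD, n = 4) and 8.14 ± 5.82 FPKM in FM (SD, n = 2), and Mag, the Siglec of myelin, 5.81 ± 4.84 FPKM in FMC and 2.10 ± 1.95 FPKM in FM. Oligodendrocyte markers, from the cells that carry Mag, summed to 24.8 to 45.9 FPKM in FMC and 16.7 and 33.6 FPKM in FM 1 and FM 2 over 7 genes, and the myelin gene Mbp was 1.79 to 17.9 FPKM in FMC and 1.05 and 3.89 FPKM in FM 1 and FM 2. Siglec15 was listed at 0 in 4 libraries and at 0.172 and 0.0414 FPKM in FMC 1 and FMC 3. Of 12 adaptors, phosphatases and kinases, 0 were called, and in 2 every FMC library exceeded both FM libraries, as in 4.34% of all genes tested. These were the Src family kinase gene Fgr, at 26.3 ± 11.9 FPKM in FMC and 7.57 ± 2.34 FPKM in FM (log2 difference 1.58, limma adjusted p = 0.790), and the kinase gene Syk, which acts downstream of DAP12. Syk was 25.6 ± 1.1 FPKM in FMC and 17.1 ± 6.8 FPKM in FM. Ptpn6, which encodes the phosphatase SHP-1, was 277, 116, 473 and 414 FPKM in FMC 1 to FMC 4, against 94.0 and 261 FPKM in FM 1 and FM 2. Tyrobp, which encodes DAP12, was 1126 to 3678 FPKM in FMC and 945 and 3746 FPKM in FM 1 and FM 2, with the FMC range inside the FM range.

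Genes that make or remove the sialic acid ligands also had 0 calls. Of 20 sialyltransferases 13 were tested, of which 5 had positive and 8 negative differences (median -0.22), and in 2 all FMC libraries lay below both FM libraries, as in 8.22% of all genes tested. St3gal3, which adds sialic acid in the alpha 2,3 linkage, was 18.1, 5.60, 20.2 and 3.02 FPKM in FMC 1 to FMC 4, against 20.8 and 54.7 FPKM in FM 1 and FM 2 (log2 difference -1.78 ± 0.82 SE, limma adjusted p = 0.967). St3gal4 and St3gal2, which act in the same linkage, overlapped between the groups: St3gal4 was 0.0739 to 3.16 FPKM in FMC and 4.49 and 2.19 FPKM in FM 1 and FM 2, and St3gal2 was 2.44 to 10.7 FPKM in FMC and 8.10 and 13.3 FPKM in FM 1 and FM 2. St8sia4, a polysialyltransferase, was 4.17 ± 1.74 FPKM in FMC and 8.28 ± 1.35 FPKM in FM. The next list had 6 tested genes: the sialidase genes Neu1, Neu2 and Neu3, the O-acetyl sialic acid genes Siae and Casd1, and Ctsa. Differences were negative for 5 of the 6, but those of Siae (-0.013) and Ctsa (-0.094) were near 0. In Neu2 and Neu3 all FMC libraries lay below both FM libraries, where 8.22% of all genes tested did so. Neu3, the plasma membrane sialidase gene, was at 0, 0.0689, 0.660 and 0.464 FPKM in FMC 1 to FMC 4, against 2.13 and 3.25 FPKM in FM 1 and FM 2 (log2 difference -1.52 ± 0.53 SE, limma adjusted p = 0.739). Neu2, a cytosolic sialidase gene, was 0 to 0.277 FPKM in FMC and 1.79 and 6.99 FPKM in FM 1 and FM 2. Both are low genes, and a value of 0 in a table without counts can be a failed estimate. Neu1, the lysosomal sialidase gene, was 2.12 to 14.04 FPKM in FMC and 10.2 and 11.3 FPKM in FM 1 and FM 2, with overlap. Npl, which cleaves free sialic acid, was 2.45 to 23.6 FPKM in FMC and 27.1 to 31.0 FPKM in FM. It was the 1 of 7 synthesis and turnover genes with separated groups, with FMC below FM as in 8.22% of all genes tested. Gne, whose product starts sialic acid synthesis, was 2.42 to 22.4 FPKM in FMC and 20.8 and 16.1 FPKM in FM 1 and FM 2, and Nanp, a phosphatase gene of the same pathway, was 2.03 to 21.3 FPKM in FMC and 5.35 and 1.66 FPKM in FM 1 and FM 2.

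Among 8 carriers of Siglec ligands, Ptprc, which encodes CD45, was 117 ± 9 FPKM in FMC (SD, n = 4) and 81.8 ± 19.8 FPKM in FM (SD, n = 2). It was the 1 carrier of the 8 for which every FMC library exceeded both FM libraries, as in 4.34% of all genes tested. Lgals3bp, which encodes a galectin-binding glycoprotein, was 188 to 506 FPKM in FMC and 114 and 257 FPKM in FM 1 and FM 2. Interferon-stimulated genes, the class to which Siglec1 belongs, had 0 calls among 20. The list had 17 positive differences and a median of 0.96, where 7923 of all 18208 genes had positive differences. In 9 genes each FMC value was higher than the FM values, an order found in 4.34% of all genes. In 1 gene, Bst2, the order was the reverse, as in 8.22% of all genes. Bst2 was 17.0 to 61.4 FPKM in FMC and 120 and 73.3 FPKM in FM 1 and FM 2. Its log2 difference was -1.44 (limma adjusted p = 0.841), and those of Isg15 (-0.26) and Mx1 (-0.049) were also negative. Oas2, whose product senses viral RNA, was 36.6, 40.4, 60.1 and 64.9 FPKM in FMC 1 to FMC 4, against 9.13 and 13.1 FPKM in FM 1 and FM 2 (log2 difference 2.07, limma adjusted p = 0.472). The groups were also apart for Oas1a (45.4 to 90.9 FPKM in FMC, 19.9 and 19.0 FPKM in FM 1 and FM 2), for the nucleic acid sensor gene Zbp1 (14.3 to 47.9 FPKM in FMC, 7.24 and 3.22 FPKM in FM 1 and FM 2) and for Ifi44 (5.59 to 22.3 FPKM in FMC, 2.18 and 0.244 FPKM in FM 1 and FM 2). Beside Oas2, the Siglec1 difference was 0.16 (95% interval -1.51 to 1.83) from 1 FM library (0.94 relative to the microglia markers), and the difference between the 2 genes was not tested.

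**Figure D5:**
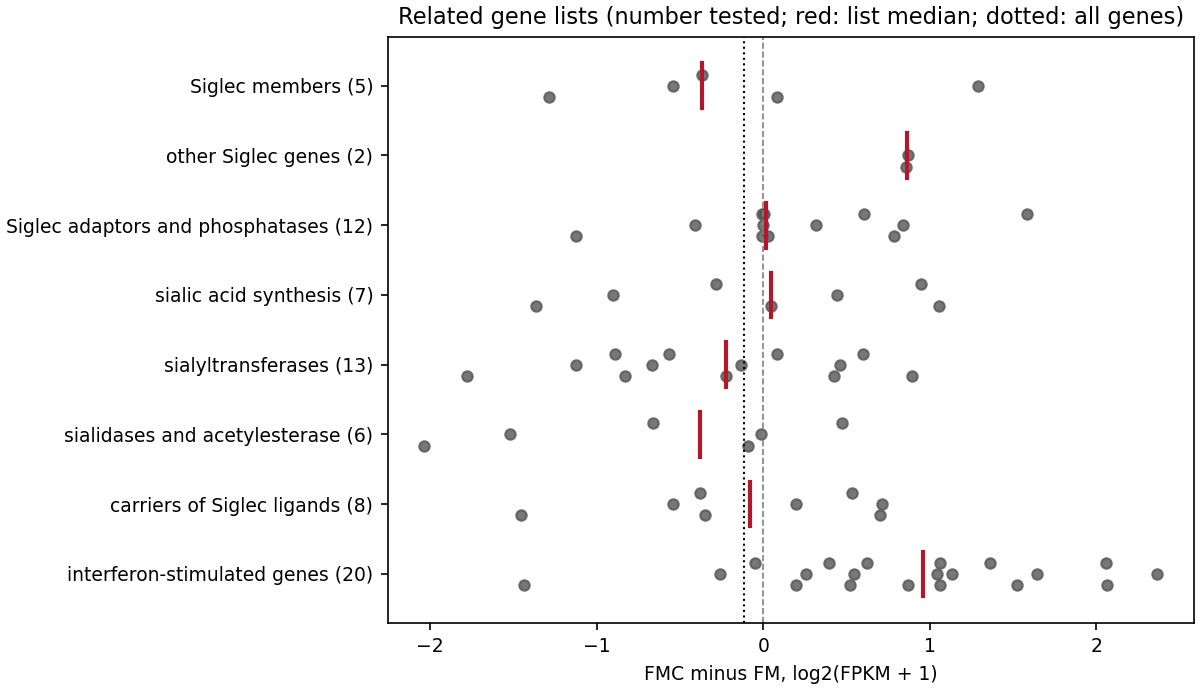
Differences between FMC and FM on the log2(FPKM + 1) scale (horizontal axis) for the tested genes of each list, 1 point per gene, with the number tested in brackets, the list median in red and the median of all genes, -0.12, dotted. The Siglec members have a median of -0.37 and the interferon-stimulated genes 0.96.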

How the data were processed

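RNA of sorted microglia was amplified to cDNA with the Ovation method and sequenced as paired ends, per the labels' protocols. Tools listed in the submitters' processing notes, without roles, are TopHat2 2.0.4, Bowtie2 2.0.0, CASAVA 1.8.2 and Cufflinks 2.0.2, with mm9 as the build. The deposited table holds FPKM by the authors for 37447 genes; strand settings are not given in the sources used here. Locus starts were read as counted from 0, since 456 of 484 miRNA loci then have the RefSeq hairpin's length, and are printed from 1.

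Values were tested as log2(FPKM + 1) for the 18208 genes with values in all libraries and at least 1 FPKM in at least 2, which 5 of the 6 members met (Siglec1 has a missing value). A fold on this scale understates changes of low genes. The model was limma (version 3.58.1, R 4.3.3) with a trend on intensity and no covariate, two-sided. Benjamini-Hochberg adjustment ran over all 18208 genes at a threshold of 0.05. The code was tested on data simulated with the means and spreads of these genes. It recovered 0% of 2-fold, 0.4% of 4-fold and 47.8% of 16-fold changes, with 4 false calls per run. The lack of a call therefore does not show the lack of a change of 4-fold or less. For single genes an exact permutation test used all 15 ways to divide the libraries into 4 and 2. Between 13390 and 15562 genes reached 1 FPKM in a library. No read totals were used; ratios of low FPKM values between libraries put sequencing depth, with FMC 2 as 1, at about 1.17 in FM 1, 1.37 in FMC 1, 1.93 in FMC 3 and 2.16 in FMC 4, and 1.66 or 3.32 in FM 2.

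Members and lists were chosen with earlier results of these data known. From each related list the 4 genes with the smallest p are named (some in the closing section), with Ptpn6, Tyrobp and the other Siglec genes always given. The 3 interferon-stimulated genes with negative differences are named as well. Of each marker list used, the summed level and some of its markers are given; 1 B cell marker is not reported here. Promoters are the first 250 bases of RefSeq entries (GRCm38.p6), found for 5 members; the bases after the start were left out, and Siglec1 had no entry. Alternatives were another pseudocount, filters, scalings, weights, covariates, blocks and omission of each library.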

Additional observations from a re-analysis of the deposited data

Results flagged for a closer look

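None of the 6 Siglec members stood out by the criteria used here, which covered 34 genes: 1 FMC library far from the other 3, or opposite genotype differences in the 2 labelled sexes. Siglec1 has no value in FM 1, the male FM library, so the second criterion could not be assessed for it. Chance gives about 1 in 20 for the first criterion. Among related genes, Cbl was 113 FPKM in FMC 2 against 24.3 to 34.6 FPKM in the other FMC libraries, a gap of 0.884 of the FMC range. Muc1 was 5.48 FPKM in FMC 1 against 0.374 to 0.991 FPKM, a gap of 0.879. Spn, which encodes the sialoglycoprotein CD43, was 8.30 FPKM in FMC 1 against 0.129 to 1.12 FPKM, also a gap of 0.879.

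The genotype difference ran opposite ways in the 2 labelled sexes for Tyrobp, Cmah and Casd1. Tyrobp was lower in both female FMC libraries than in FM 2 and higher in both male FMC libraries than in FM 1, with an interaction (male minus female difference, log2) of 0.88. Cmah, which hydroxylates sialic acid in the mouse, was higher in both female FMC libraries and lower in both male ones (interaction -4.47). Casd1, an O-acetyltransferase gene for sialic acid, was lower in female and higher in male FMC libraries (interaction 1.87). The interaction was tested with limma and passed for none of the 3 (adjusted p = 0.999 for each); each sex has 1 FM library.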

How the results depend on the processing

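No Siglec member passed the threshold under any of the 18 alternatives run. Siglec5 stayed positive (0.72 to 1.73 on the log2 scale) and Siglece and Siglecg negative (-2.08 to -0.49 and -0.64 to -0.16) in all 18. Some of the 18 cannot change a member's difference. These are the changed filters, the fit without an intensity trend, sex as a covariate and the kept missing values. Their signs are therefore no separate support. Siglech was negative in 17 and turned to 0.013 when libraries were centred on microglia markers. Cd33 turned to -0.33 with the replicate block and to -0.098 with adjacent dates as a block, and ran from -0.31 to 0.48 with 1 library left out. Siglec1 could be tested in 2 fits only. Among the other named genes Tyrobp turned to 0.11 with median ratio scaling and 0.37 when centred on microglia markers. With 1 library left out Tyrobp ran from -1.002 to 0.98, Cmah from -0.53 to 2.42 and Casd1 from -0.43 to 1.37. The 5 genes called over the whole table, all lower in FMC, became 33 without a filter and 10 without an intensity trend, again all lower. They became 1, higher in FMC, with a pseudocount of 0.1, and 3 with adjacent dates as a block (2 higher, 1 lower). There were 0 with a mean of at least 5 FPKM, with sex as a covariate and with the replicate block, and 0 to 8 with 1 library left out (8 without FMC 4, of which 4 higher and 4 lower; 0 without FMC 2, FMC 3, FM 1 or FM 2). Deviations from the group means correlated weakly across genes in same-numbered libraries (r = 0.031 and -0.057). They did so too in those with dates 1 day apart (r = 0.057 and -0.0685). With 2 FM libraries the deviations of FM 1 and FM 2 are mirror images, so these values cannot decide whether libraries are paired. The cause of the changes in the genes called was not tested. Leaving out an FM library leaves a lone FM library that is assumed to vary like FMC.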
